A study of Arabidopsis thaliana with 11 samples.

Results

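The chloroplast genome of Arabidopsis encodes core subunits of the photosynthetic machinery, and 32 of its transcripts were followed here across diploid, triploid and tetraploid seedlings. The members were all probe sets assigned to exactly 1 chloroplast gene whose symbol begins with psa, psb, pet or atp, together with rbcL and without psaJ. This gave 32 of the 22810 probe sets on the array, and 32 of the 69 that map to 1 chloroplast gene. Photosystem I contributed 4 members, photosystem II 15, the cytochrome b6f complex 6, the chloroplast ATP synthase 6, and rbcL stood alone. The other 37 chloroplast probe sets, for the NDH complex, ribosomal proteins, RNA polymerase and other functions, served as the comparison.

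The photosystems, the cytochrome b6f complex and the ATP synthase form the thylakoid electron transport chain, which splits water, reduces NADP and drives ATP synthesis, while Rubisco fixes carbon dioxide in the stroma. Each complex is a mosaic: the reaction-centre and catalytic core proteins are mostly encoded in the chloroplast, and the antenna and many peripheral subunits in the nucleus. Many chloroplast genes are transcribed as multi-gene units whose long precursor RNAs are cut and stabilised by proteins imported from the cytosol, so members of different complexes can share a precursor.

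RNA of whole plants of ecotype C24, grown on agar and taken at 1 early leaf stage, was hybridised to Affymetrix ATH1 arrays. The series asks how the transcriptome responds to ploidy. Diploids were measured on 2 arrays, and there were 3 arrays of tetraploids made with colchicine, and 6 arrays of triploids, which carry 3 chromosome sets. The labels describe all triploids as coming from a tetraploid by diploid cross and divide them by the codes TFE (3 arrays) and TME (3 arrays), which they do not spell out. No treatment or transgene separated the groups. Whether replicates were sown separately is not stated, so the p-values below refer to the spread between arrays, and that spread may be technical. The groups were numbered one after another in the array titles, so handling order and group cannot be told apart.

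Every array had been scaled by the authors to the same mean signal, so a member's difference is always set against the other transcripts of its array. All 32 members passed the filter on dim probe sets, and none of their values lay at the floor. One array, triploid TFE replicate 3, stood apart: its rank correlations with the other 10 ran from 0.861 to 0.88, whereas other pairs reached up to 0.973. The signal of 18 spiked-in bacterial control probe sets (geometric mean) also differed, at 157 and 321.5 in diploids, 371.9 to 627.5 in triploid TFE, 271.7 to 424.9 in triploid TME and 241.8 to 257.2 in tetraploids. Of 9 root markers, 3 had a named probe set. Lists for seed storage, senescence and the shoot meristem had 0, so the labelled tissue could not be checked against those.

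Photosynthesis transcripts of the chloroplast moved largely as a block from array to array. The median over the 32 members of the log2 signal, taken for each gene relative to its own mean over the 11 arrays, ran from -0.45 on diploid replicate 1 to 0.41 on triploid TFE replicate 3. On diploid replicate 1, 0 of 32 members were above their own mean, and on triploid TFE replicate 2, 30 of 32 were. By group, this median was -0.26 ± 0.27 (SD, n = 2) in diploids, 0.32 ± 0.13 (SD, n = 3) in triploid TFE, -0.06 ± 0.23 (SD, n = 3) in triploid TME and -0.10 ± 0.28 (SD, n = 3) in tetraploids. Replicates of 1 group could lie far apart: in triploid TME, replicate 2 stood at -0.32 and replicate 1 at 0.11, and in tetraploids, replicate 2 stood at -0.41 and replicate 1 at 0.13. The other 37 chloroplast genes covered a similar range, from -0.37 to 0.42. In whole seedlings, fewer cells of a type and less RNA per cell cannot be told apart.

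**Figure D1:**
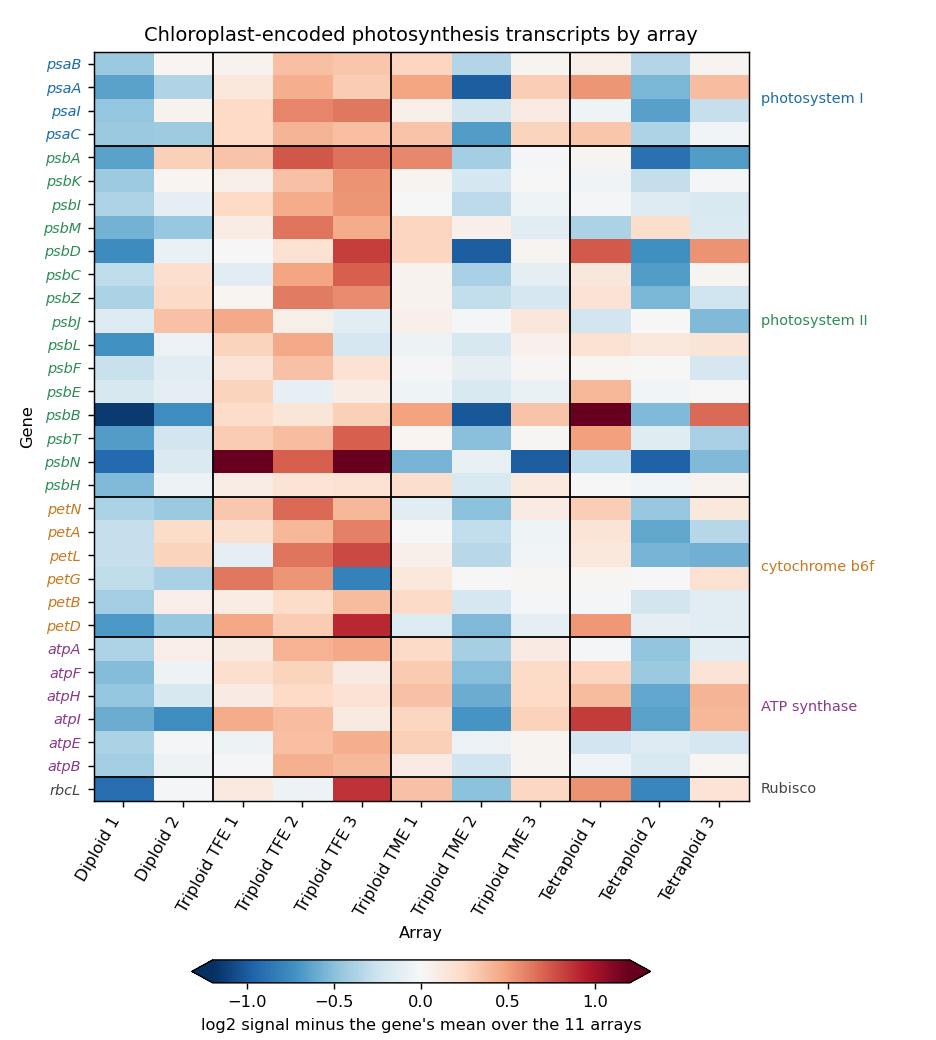
Heat map of the 32 transcripts (rows, grouped by complex) on the 11 arrays (columns, grouped by ploidy); colour is the log2 signal minus the gene's mean over the 11 arrays, with the scale ending at 1.2 in either direction. The 3 triploid TFE columns are mostly red, while diploid replicate 1, triploid TME replicate 2 and tetraploid replicate 2 are mostly blue.

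Triploid TFE seedlings were first set against diploids. All 32 members had a higher mean in triploid TFE, by a median of 0.52 on the log2 scale, from 0.04 for psbJ to 2.07 for psbN. In no member did the difference pass the test (limma, smallest adjusted p = 0.17), and 0% of the 15075 probe sets tested passed it in this comparison. An unadjusted p under 0.05 was reached by 21 members, and by 1369 of all probe sets. For 23 members every triploid TFE array was above both diploid arrays, against 11.9% of all probe sets. The median difference over all probe sets was 0.0026, and 50.4% of them were above 0. The median of the members depended on the diploid arrays: it was 0.33 without diploid replicate 1 and 0.77 without diploid replicate 2. It also moved with the spiked-in control level, and with that level as a covariate it was -0.005. The ratio of 3' to 5' actin probe sets, a sign of RNA quality, was 0.506 and 0.524 in diploids, and 0.559, 0.581 and 0.92 in triploid TFE. An older pair of actin probe sets gave 2.44 and 2.23 in diploids and 2.92, 2.46 and 1.2 in triploid TFE, so the pairs ran in opposite directions on triploid TFE replicate 3. The ratios for GAPDH and ubiquitin overlapped between these groups. The part of these measures in the result was not tested.

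In photosystem I the median difference from diploids was 0.73, and every array of triploid TFE lay above both diploid arrays for all 4 members. The transcript of psaA, one of the large reaction-centre proteins that bind the primary electron donor, differed most. Its signal was 1978 and 2406 in diploids, 3372, 4158 and 3809 in triploid TFE, 4280, 1553 and 3791 in triploid TME, and 4439, 2108 and 3979 in tetraploids. Thus triploid TFE was uniformly high, and the other polyploid groups each held 1 array below the higher diploid array. The log2 difference of triploid TFE from diploids was 0.79 ± 0.36 (SE; limma, adjusted p = 0.55). For psaB, which encodes the partner of psaA in the reaction centre, the difference was the smallest of the complex at 0.45 ± 0.19 (SE; limma, adjusted p = 0.52). The psaB signal was 4109 and 5699 in diploids, 5752, 7173 and 7029 in triploid TFE, 6713, 4389 and 5728 in triploid TME, and 5865, 4387 and 5720 in tetraploids. Its groups lay close: the lowest triploid TFE array was just above the higher diploid array. The transcript of psaC, the iron-sulfur subunit that passes electrons to ferredoxin, was 990.3 and 999.9 in diploids and 1594 to 1787 in triploid TFE. The small membrane subunit psaI differed by 0.70 ± 0.19 (SE; limma, adjusted p = 0.39).

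Photosystem II held both the largest and the smallest difference among all members. The largest belonged to psbN, which is not a subunit of the finished photosystem but is required for assembly of its reaction centre in tobacco. The psbN signal was 38.7 and 65.2 in diploids, 187, 121 and 415 in triploid TFE, 49.9, 69.3 and 37.1 in triploid TME, and 60.3, 37.5 and 51.0 in tetraploids. All 3 triploid TFE arrays were above all 8 others, and they also differed most among themselves. The log2 difference from diploids was 2.07 ± 0.42 (SE; limma, adjusted p = 0.17), with values of 1.58 without triploid TFE replicate 3 and 2.47 without triploid TFE replicate 2. The smallest difference was that of psbJ, a small membrane subunit, at 0.04 ± 0.19 (SE; limma, adjusted p = 0.96). Its signal was 411 and 583 in diploids, 629, 481 and 419 in triploid TFE, 479, 450.3 and 505 in triploid TME, and 392, 455 and 317 in tetraploids, so all groups overlapped with the diploids.

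Among the core proteins of photosystem II, psbA encodes D1, the reaction-centre protein that is replaced fastest in the light. The psbA signal was 1996 and 3805 in diploids, 3954, 5229 and 4909 in triploid TFE, 4638, 2347 and 3094 in triploid TME, and 3197, 1677 and 1958 in tetraploids. It was highest in triploid TFE and lowest on tetraploid replicate 2, with a log2 difference of triploid TFE from diploids of 0.76 ± 0.31 (SE; limma, adjusted p = 0.50). The other reaction-centre protein, D2, is encoded by psbD, and differed by 0.75 ± 0.41 (SE; limma, adjusted p = 0.57). The inner antenna proteins CP47 and CP43 are encoded by psbB and psbC, whose differences were 1.16 ± 0.44 (SE) and 0.41 ± 0.26 (SE). The subunits of cytochrome b559, psbE and psbF, differed by 0.24 ± 0.14 (SE) and 0.42 ± 0.11 (SE). The remaining small subunits, psbH, psbI, psbK, psbL, psbM, psbT and psbZ, lay between 0.43 for psbH and 0.91 for psbT. The smallest adjusted p of the complex, 0.17, was shared by psbI, psbM and psbN.

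Cytochrome b6f members had a median difference of 0.46, and 3 of 6 had all triploid TFE arrays above both diploids. The largest was petD, which encodes subunit IV, at 1.13 ± 0.24 (SE; limma, adjusted p = 0.21). The petD signal was 48.0 and 56.2 in diploids, 107, 95.6 and 144 in triploid TFE, 68.9, 53.4 and 71.3 in triploid TME, and 111, 71.6 and 70.1 in tetraploids. Triploid TFE was thus above both diploids and every triploid TME array, and overlapped with 1 tetraploid array. The smallest was petB, encoding the haem-bearing cytochrome b6, at 0.40 ± 0.16 (SE; limma, adjusted p = 0.50). Its signal was 3705 and 5231 in diploids, 5264, 5766 and 6451 in triploid TFE, 5804, 4305 and 4875 in triploid TME, and 4909, 4251 and 4505 in tetraploids. Cytochrome f, the product of petA, and the small subunits petG, petL and petN had differences of 0.42, 0.46, 0.45 and 0.88. For petG, triploid TFE replicate 3 was the lowest of all 11 arrays at 161, while the other triploid TFE arrays were the highest at 436 and 406. Without that array the petG difference was 0.93 and passed the test (limma, adjusted p = 0.024), as did 0.0199% of all probe sets in that fit.

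Of the 6 ATP synthase members, 5 had differences between 0.44 and 0.50. The exception was atpI, subunit a of the membrane-bound proton channel, at 0.98 ± 0.35 (SE; limma, adjusted p = 0.48). The atpI signal was 122 and 110.2 in diploids, 253, 239.6 and 199 in triploid TFE, 221, 113 and 225 in triploid TME, and 331, 118 and 243 in tetraploids. The arrays fell apart into values of 110.2 to 122, which included 1 array of triploid TME and 1 of tetraploids, and values of 199 or more. The smallest difference was that of atpE, the epsilon subunit of the catalytic head, at 0.44 ± 0.16 (SE; limma, adjusted p = 0.48). Its signal was 5198 and 6656 in diploids, 6465, 8673 and 9120 in triploid TFE, 8213, 6440 and 6898 in triploid TME, and 5773, 6062 and 5860 in tetraploids. Like atpI, atpE lay between the diploid arrays on triploid TME replicate 2 and tetraploid replicate 2. Unlike atpI, it also lay between them on triploid TFE replicate 1 and on the other tetraploid arrays. Subunits alpha and beta of the catalytic head, encoded by atpA and atpB, differed by 0.47 and 0.50. For atpF and atpH, the stalk and ring subunits of the membrane part, the differences were 0.48 and 0.50.

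The transcript of rbcL, the large catalytic subunit of Rubisco, varied widely within each group. Its signal was 435 and 809 in diploids, 889.7, 787 and 1504 in triploid TFE, 1047, 584 and 975 in triploid TME, and 1197, 478 and 919.9 in tetraploids. Each polyploid group held an array below the higher diploid array. The log2 differences from diploids were 0.78 ± 0.37 in triploid TFE, 0.50 ± 0.37 in triploid TME and 0.44 ± 0.37 in tetraploids (SE; limma, adjusted p = 0.55, 0.999 and 0.87).

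**Figure D2:**
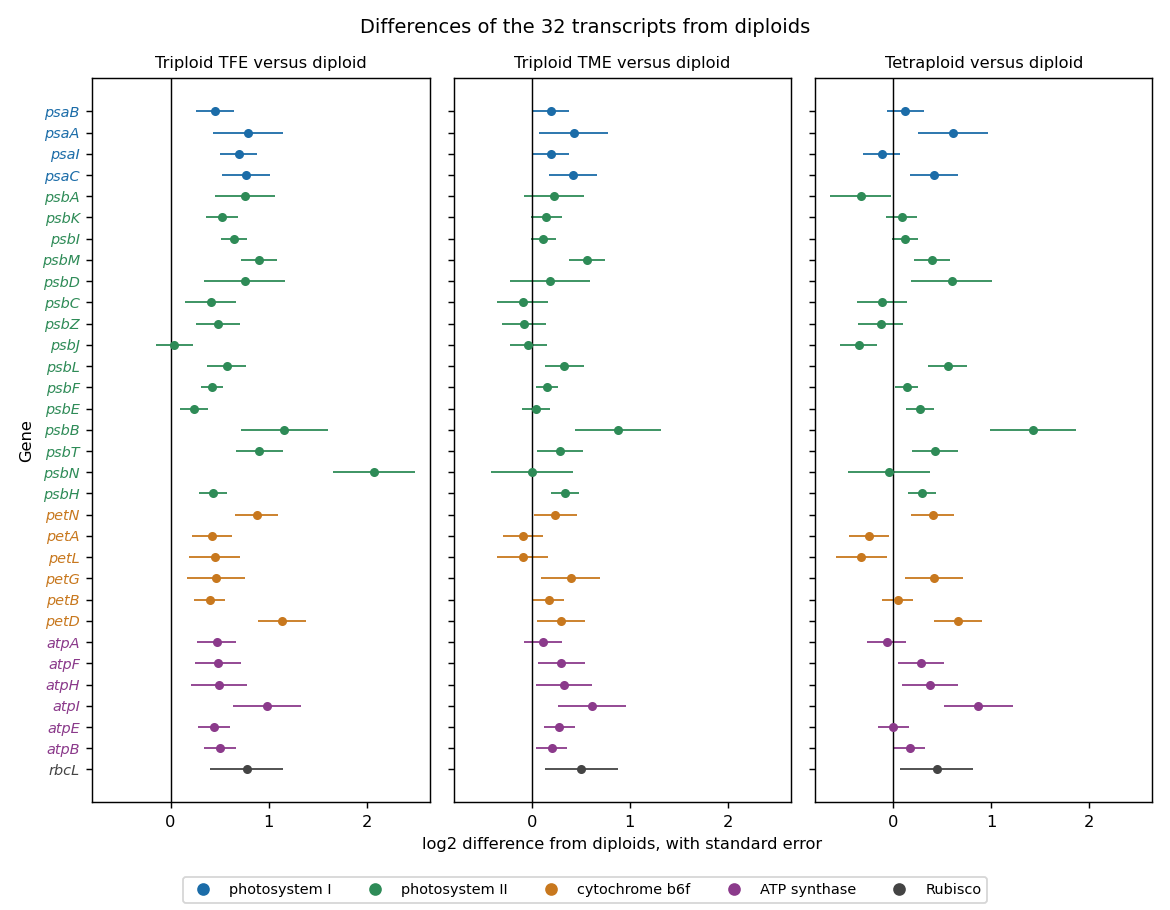
Log2 difference from the diploid mean (x axis) of each of the 32 transcripts (y axis, coloured by complex) in triploid TFE, triploid TME and tetraploids; bars are standard errors from limma. All 32 points are right of 0 in triploid TFE, 27 in triploid TME and 23 in tetraploids, and the same 2 diploid arrays enter all 3 panels.

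Triploid TME and tetraploids were set against the same 2 diploid arrays, so these comparisons share them with the one above. In triploid TME, 27 of 32 members were above the diploids, with a median log2 difference of 0.22, while 49.5% of all probe sets were above 0. None passed the test (limma, smallest adjusted p = 0.65), where 0.126% of all probe sets did. An unadjusted p under 0.05 was reached by 2 members, and by 678 of the 15075 probe sets. Only 3 members had all triploid TME arrays above both diploids, against 12.5% of all probe sets. The 5 members below the diploids were psbC, psbJ, psbZ, petA and petL, at -0.04 to -0.09. The highest were psbB at 0.88, atpI at 0.61 and psbM at 0.57. By complex the medians were 0.30 in photosystem I, 0.16 in photosystem II, 0.21 in cytochrome b6f and 0.29 in the ATP synthase. The median of the members was 0.01 without diploid replicate 1 and was 0.42 without diploid replicate 2.

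In tetraploids, 23 of 32 members were above the diploids, with a median of 0.22, while 51.1% of all probe sets were above 0. None passed the test (limma, smallest adjusted p = 0.24), where 0.829% of all probe sets did. An unadjusted p under 0.05 was reached by 5 members, and by 1270 of the 15075 probe sets. For 8 members all tetraploid arrays were above both diploids, against 15.9% of all probe sets. The median was 0.03 without diploid replicate 1 and 0.36 without diploid replicate 2. The largest difference was that of psbB, at 1.42 ± 0.44 (SE; limma, adjusted p = 0.24). The psbB signal was 346 and 459 in diploids, 894, 848 and 936 in triploid TFE, 1073, 378 and 974 in triploid TME, and 1863, 532 and 1231 in tetraploids. Every tetraploid array was above both diploids, but tetraploid replicate 2 only narrowly. Without tetraploid replicate 2 the difference was 1.93 and passed the test (limma, adjusted p = 0.033), as did 0.663% of all probe sets in that fit. Then came atpI at 0.87, petD at 0.66, psaA at 0.61 and psbD at 0.60. The lowest were psbJ at -0.35, psbA at -0.33 and petL at -0.33.

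The 2 triploid groups share a source label and differ in their title code. All 32 members were higher in triploid TFE than in triploid TME, by a median of 0.36, which was 0.18 without triploid TME replicate 2. Over all probe sets, 50.1% were higher. None passed the test (limma, smallest adjusted p = 0.17), where 0.0265% of all probe sets did. An unadjusted p under 0.05 was reached by 12 members, and by 1592 of the 15075 probe sets. For 9 members the arrays did not overlap, against 7.29% of all probe sets higher in triploid TFE. The smallest adjusted p belonged to psbN, with a log2 difference of 2.06 ± 0.37 (SE; limma), which passed without triploid TFE replicate 2 (2.47, adjusted p = 0.030), where 0.0398% of all probe sets were called. Next in size were petD at 0.83, petN at 0.64 and psbT at 0.62. Cytochrome b6f had the highest median of the complexes, 0.53, and the ATP synthase the lowest, 0.24. Of the other 37 chloroplast genes, 35 were higher in triploid TFE, by a median over all 37 of 0.39. For 17 of them the arrays did not overlap, and 1, rpl33, was called (limma, adjusted p = 0.039). The difference was thus not confined to the photosynthesis genes. With the spiked-in control level as a covariate the median of the members was 0.075. The actin ratio was 0.407 to 0.539 in triploid TME, below every triploid TFE array, whereas the older pair overlapped, and their part was not tested.

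Against tetraploids, triploid TFE showed differences that passed the test. In tetraploids, 30 of 32 members were lower than in triploid TFE, by a median of 0.37, and 2 were called lower (limma), where 0.0862% of all probe sets were. Over all probe sets, 50.2% were higher in tetraploids. For 12 members all tetraploid arrays were below all triploid TFE arrays, against 8.09% of all probe sets. The 2 called were psbN, which fell by 2.11 ± 0.37 (SE; limma, adjusted p = 0.019), and psaI, which fell by 0.81 ± 0.17 (SE; limma, adjusted p = 0.0498). The psaI signal was 1353 and 1921 in diploids, 2203, 2797 and 2891 in triploid TFE, 1959, 1603 and 1991 in triploid TME, and 1796, 1191 and 1538 in tetraploids. As with psbN, all 3 triploid TFE arrays were above all 8 others. The actin ratio did not overlap between these groups either, at 0.308 to 0.403 in tetraploids and 0.559 to 0.92 in triploid TFE, whereas the older actin pair overlapped; their part in the result was not tested.

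Both calls were close to the threshold. The psbN call was lost without any 1 of the 3 tetraploid arrays (adjusted p = 0.059, 0.084 and 0.13 by limma). The psaI call held only without diploid replicate 1, diploid replicate 2 or triploid TFE replicate 1 (adjusted p = 0.033 to 0.037 by limma), and was lost without each of the other 8 arrays (up to 0.19). Without triploid TFE replicate 1, 4 members were called, psbN, psaI, psbI and petL, where 0.836% of all probe sets were called in either direction. With the spiked-in control level as a covariate neither was called, and the median of the 32 members was 0.021. With the replicate number as a block over all 11 arrays, psbN kept its call (limma, adjusted p = 0.027) and psaI did not (0.060). Among the other members, psbA fell by 1.09 ± 0.28 (SE; limma, adjusted p = 0.11), petL by 0.77 and petA by 0.67, none of which passed. The 2 members not lower in tetraploids were psbB at 0.26 and psbE at 0.03. Of the other 37 chloroplast genes, 36 were lower and 5 were called, so falls in this comparison were not confined to the photosynthesis genes.

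A test for any difference among the 4 groups (limma, moderated F) called psbN alone of the 32 members (adjusted p = 0.025), where 0.564% of all probe sets were called. The next smallest were psbI (0.061) and psaI (0.13).

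**Figure D3:**
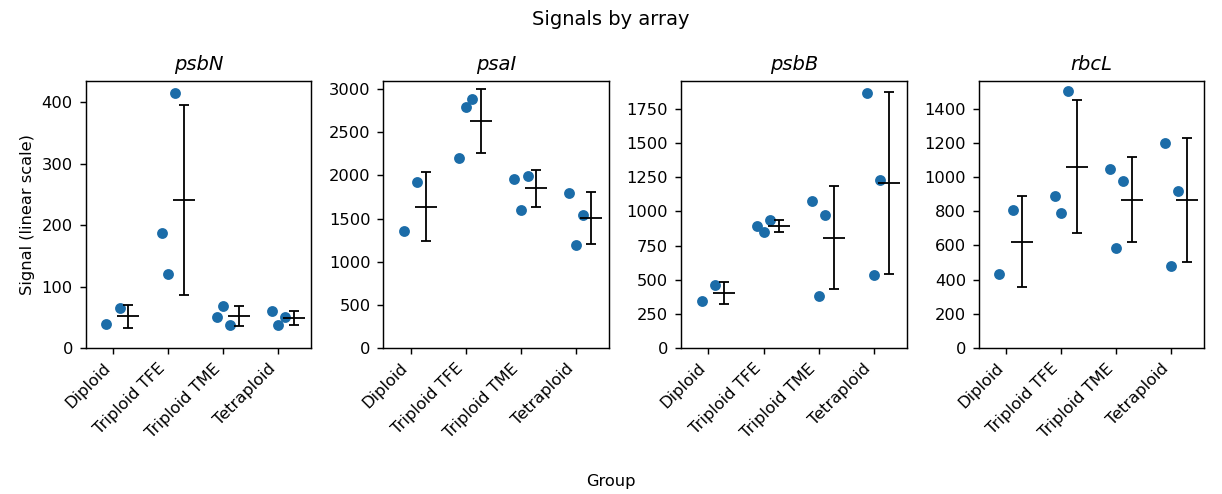
Signal (linear scale, y axis) of psbN, psaI, psbB and rbcL on each array, by group (x axis); points are arrays and the bar beside them is the mean with the SD (n = 2 in diploids, n = 3 in the others). The 3 triploid TFE points are above all others for psbN and psaI, whereas for psbB and rbcL the points of triploid TFE lie within the range of the tetraploids or overlap with it.

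Between tetraploids and triploid TME the members lay on both sides of 0. Of 32, 12 were higher in tetraploids, against 52% of all probe sets, the median difference was -0.03, and none was called or reached an unadjusted p under 0.05 (limma). No probe set on the array was called in this comparison (0%), and 697 had an unadjusted p under 0.05. Differences ran from -0.56 for psbA to 0.54 for psbB. Deviations from group means of same-numbered arrays of these 2 groups correlated only weakly (0.103, 0.121 and 0.14), little above the highest value for other groups (0.0975). A fit of these 6 arrays with the replicate number as a block was added after the data were seen. In it psbB was called higher in tetraploids (limma, adjusted p = 0.045) and psbA lower (limma, adjusted p = 0.023). Of all probe sets, 0.279% were called in either direction in that fit. The psbB signal of tetraploids exceeded that of triploid TME in all 3 same-numbered pairs, and the psbA signal was below it in all 3.

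The complexes were then compared with each other. On the scale of the authors their medians varied together over the arrays: each of the 4 multi-gene complexes was lowest on diploid replicate 1, triploid TME replicate 2 or tetraploid replicate 2, and highest on a triploid TFE array. The range over arrays was 0.93 for photosystem I, 1.05 for photosystem II, 0.84 for cytochrome b6f, 0.83 for the ATP synthase and 1.79 for rbcL alone. On triploid TME replicate 2, photosystem I and the ATP synthase were the lowest of these 4, at -0.51 and -0.45, against -0.21 for photosystem II and -0.31 for cytochrome b6f. On tetraploid replicate 2 both stood at -0.46, against -0.15 for photosystem II and -0.34 for cytochrome b6f.

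Each array was also centred on its median over the other 37 chloroplast genes, to show what the complexes did beyond the chloroplast genome as a whole. The range over arrays then fell to 0.67 for photosystem I, 0.50 for photosystem II, 0.31 for cytochrome b6f and 0.61 for the ATP synthase. On this scale the median member was 0.16 lower in triploid TFE than in diploids, with 13 members higher and 19 lower. Over all probe sets, 4.13% were higher. The other 37 chloroplast genes themselves had a median of -0.19, with 10 higher and 27 lower, so the members were not lower than these. On the scale of the authors the corresponding medians were 0.52 over the members and 0.49 over the other chloroplast genes, all 37 of which were also higher in triploid TFE. The relative median was -0.19 over the other chloroplast genes and -0.03 over the 10 NDH genes among them. It was 0.06 in photosystem I, -0.10 in photosystem II, -0.22 in cytochrome b6f and -0.19 in the ATP synthase. Of these members, psbN was called higher (1.39; limma, adjusted p = 0.0087), where 0.0398% of all probe sets were. One, psbJ, was called lower (-0.64 by limma, adjusted p = 0.032), where 51.3% of all probe sets were. On this scale the median difference over all probe sets was -0.67. Of the other 37 chloroplast genes, 1 was called higher, ndhG (0.90 by limma, adjusted p = 0.012), and 4 were called lower. Relative to the other chloroplast genes psbN was also higher in triploid TFE than in triploid TME (1.60; limma, adjusted p = 0.014), where 0.00663% of all probe sets were called higher.

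On the same relative scale, 27 of 32 members were higher in tetraploids than in triploid TFE, by a median of 0.28, where 96.9% of all probe sets were higher, by a median of 0.66. Against triploid TME 27 of 32 were higher too, by a median of 0.17, where 83.4% of all probe sets were, by a median of 0.20. The direction of the members is thus that of nearly all probe sets on this scale. The other chloroplast genes had medians of 0.11 against triploid TFE and 0.09 against triploid TME, with 25 of 37 higher in each. Both comparisons use the same 3 tetraploid arrays. In the comparison with triploid TFE, psbB (0.92), psbE (0.69), psbL (0.64), atpH (0.54), psbH (0.52) and atpF (0.46) were called higher and psbN (-1.46) lower. As 59.3% of all probe sets were called higher and 0.00663% lower in that comparison on this scale, the 6 members called higher are a share below the background. All 6 ATP synthase members and 13 of 15 photosystem II members were above 0. Against diploids, psbB alone was called (1.402; limma, adjusted p = 0.045), where 0.398% of all probe sets were called higher.

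**Figure D4:**
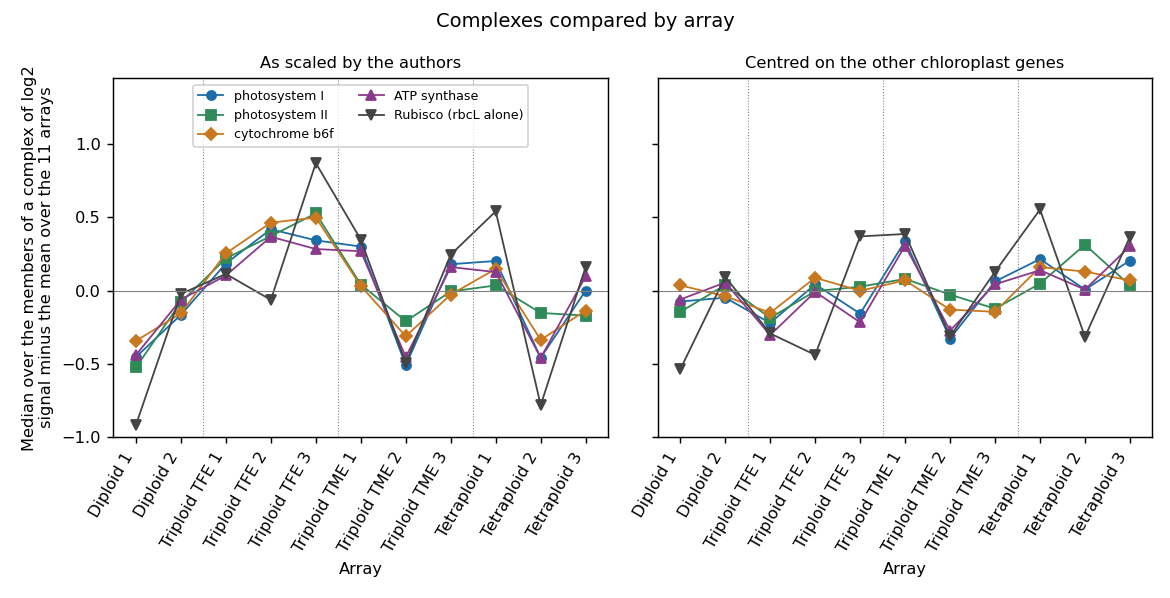
Median over the members of each complex of log2 signal minus the gene's mean over the 11 arrays (y axis) on each array (x axis), as scaled by the authors (left) and after centring each array on the other chloroplast genes (right). On the left all complexes are below 0 on both diploid arrays, triploid TME replicate 2 and tetraploid replicate 2. On the right the range narrows, to 0.31 for cytochrome b6f, and rbcL remains the most variable.

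The array-to-array pattern of atpI, noticed after the values were seen, recurred in members of other complexes. Its 4 lowest arrays were both diploids, triploid TME replicate 2 and tetraploid replicate 2. The same 4 arrays were the lowest for 10 further members: psaA, psaB and psaC of photosystem I, psbB, psbD and psbH of photosystem II, petN of cytochrome b6f, and atpB, atpF and atpH of the ATP synthase. With atpI this made 11 of 32 members (3 of 4 in photosystem I, 4 of 6 in the ATP synthase, 3 of 15 in photosystem II and 1 of 6 in cytochrome b6f). Among the other chloroplast genes it was 6 of 37, with 3 of 10 in the NDH complex, and among all probe sets 0.531%. The step between the fourth and the fifth lowest array was widest in atpI, at 0.70 on the log2 scale, followed by psbB at 0.67, psaA at 0.49, psaC at 0.34 and atpH at 0.29. These were also the 5 widest among the 80 of 15075 probe sets that had these 4 arrays lowest, a pattern taken from atpI itself. Steps above other sets of 4 arrays were not ranked. The step was 0.08 in psbD, 0.04 in psbH, 0.006 in atpB and 0.005 in psaB, so the last of these share the 4 arrays only by near ties. In the NDH genes ndhG, ndhE and ndhH it was 0.22, 0.18 and 0.17.

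By Pearson's r over the 11 arrays, the members most like atpI were psbB (0.94), psaA (0.91), atpH (0.90), psaC (0.89) and atpF (0.87). Among all probe sets, the 20 most like atpI included 6 members and 9 chloroplast genes in all. Least like it were psbJ (-0.17), psbM (0.21), atpE (0.24), psbN (0.26) and petL (0.29), so subunits of 1 complex stood at both ends. These points share their arrays and the scaling of each array, and r is given as a description. The psbM signal, for example, was 3943 and 4260 in diploids, 6212, 9116 and 7912 in triploid TFE, 6958, 6074 and 5302 in triploid TME, and 4471, 6758 and 5177 in tetraploids. Every polyploid array was above both diploids for psbM, and tetraploid replicate 2, low for atpI, was the highest of its group.

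**Figure D5:**
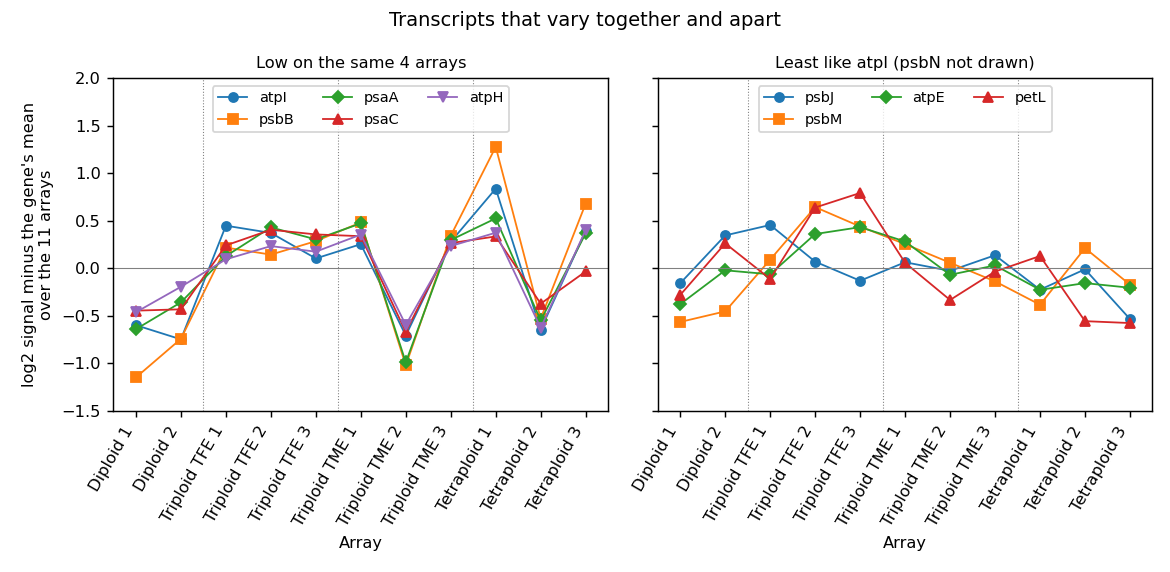
Log2 signal minus the gene's mean over the 11 arrays (y axis) on each array (x axis). Left, the 5 transcripts with the widest step above the 4 arrays lowest for atpI: all drop on both diploids, triploid TME replicate 2 and tetraploid replicate 2. Right, psbJ, psbM, atpE and petL, which with psbN (not drawn) are the 5 least like atpI by Pearson's r, and for which those are not the 4 lowest arrays.

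Genes that share a precursor RNA were not uniformly alike. Over the 11 arrays, Pearson's r had a median of 0.72 in the 28 pairs of members from 1 transcription unit and 0.66 in the 468 pairs from different units. It was 0.63 in the 141 pairs from 1 complex and 0.68 in the 355 pairs from different complexes. Close pairs within a unit were atpH and atpF (0.96), psbT and petD (0.95), psaI and petA (0.94), and psbK and psbI (0.93). At the other end were petL and petG (-0.27), and psbE and psbJ (-0.01). In the atpI unit, atpI followed atpH (0.90) and atpF (0.87) more closely than atpA (0.57), the last gene of that unit.

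The psbB unit joins photosystem II and cytochrome b6f genes. The log2 ratio of psbB to psbH, relative to the diploid mean, was 0.03 and -0.03 in diploids, 0.78, 0.64 and 0.76 in triploid TFE, 0.93, -0.19 and 0.88 in triploid TME, and 1.93, 0.16 and 1.296 in tetraploids. The ratio stayed near the diploid value on triploid TME replicate 2 and tetraploid replicate 2, and was higher on every other polyploid array. The ratio of psaA to psaB ran the same way, at -0.35 on triploid TME replicate 2, 0.09 on tetraploid replicate 2 and 0.27 to 0.75 on the other polyploid arrays. The ratio of psbD to psbC was -0.24 and 0.30 on those 2 arrays, and 0.07 to 0.96 on the other polyploid arrays. In each of these pairs the first gene is the first of its unit. The psbN gene lies within the psbB unit on the opposite strand, and its ratio to psbH was 1.51, 0.82 and 2.58 in triploid TFE and between -0.84 and 0.35 in the other polyploid arrays.

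Members also differed in how well replicates matched. The residual SD within groups, on the log2 scale, had a median of 0.29 over the 32 members, 0.26 over the other chloroplast genes and 0.24 over all probe sets. Probe sets outside the chloroplast genome at least as bright as the dimmest member had a median of 0.18. The most reproducible member was psbF (0.10), and the least were psbB (0.67), psbD (0.63), psbN (0.61) and rbcL (0.57).

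Nuclear genes of the same pathway were followed through 9 lists of 81 loci: nuclear subunits of the complexes, the light-harvesting antenna, Rubisco small subunits and activase, plastid transcription and mRNA factors, and chlorophyll synthesis. Of these, 16 had a named probe set above the filter, and none was called in any comparison. In triploid TFE against diploids, differences on the log2 scale included PSAE1 of photosystem I 0.25, PSBW of photosystem II 0.22, the antenna protein LHCB4.1 0.28, PETM of cytochrome b6f 0.36, the gamma subunit ATPC1 0.24 and Rubisco activase RCA 0.30. Below the diploids were the antenna gene LHCB4.3 at -0.52, which was -0.72 in tetraploids (limma, adjusted p = 0.052), and ATPC2, a second gamma subunit gene, at -0.17. PORB, which makes chlorophyllide in the light, was 0.59 above diploids in triploid TFE, 0.64 in triploid TME and 0.65 in tetraploids (limma, adjusted p = 0.36, 0.19 and 0.06). The 4 factors for plastid mRNAs and assembly, HCF101, LPA1, LPA2 and ATAB2, had a median of -0.12 in triploid TFE against diploids.

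The 3 measured root markers were EXPA7 and EXPA18, expansins of root hair cells, and PRX57, a peroxidase. Their summed signal was 201.8 to 318.4 in triploid TFE and 414.5 to 460.6 in tetraploids, with 268.5 and 417.2 in diploids and 301.3 to 415.4 in triploid TME. All 3 were higher in tetraploids than in triploid TFE, by a median of 0.75, and none was called (limma). Their part in the lower signals of chloroplast transcripts in tetraploids was not tested.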

How the data were processed

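RNA of 11 whole-plant samples was hybridised to 1 array each. The deposited files hold 1 linear intensity value for each probe set. The authors made it with MAS5, as the submitters' processing notes say without a version. Scanner files and detection calls were not used here. Of 22810 probe sets, 64 controls were set aside. A floor of 2.279 (percentile 10 over the pooled values) was set before taking log2, and probe sets were kept where above the array's percentile 40 on at least 2 arrays, which left 15075. Groups were compared with limma 3.58.1 under R 4.3.3 (a mean per group, 11 arrays, variances moderated with an intensity trend, 2-sided). A call is a Benjamini-Hochberg adjusted p under 0.05 over all 15075. Precision is limited by how many arrays each group has. The fit was tested on simulated data. No pair of arrays held identical values.

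Values relative to the chloroplast genome come from the same fit after subtracting, per array, the median of the 37 other chloroplast probe sets. Genes were named from the platform annotation; no genome build is named in the sources used here, and coordinates are left out. Every member is named. Values on every array are given for rbcL, for members called in a comparison and, per complex, for the members with the largest and smallest difference between triploid TFE and diploid; psbA, psbB, psbM and others were added after their values were seen. The members, gene lists and tests were chosen with earlier results of these data known. Replicate numbers were checked as pairs: deviations from group means of same-numbered arrays correlated between -0.19 and 0.14, and exceeded 0.1 in all 3 pairs (0.103, 0.121 and 0.14) between triploid TME and tetraploids alone. Alternatives covered the normalization, floor, filter, variance model, arrays fitted, replicate block, spiked-in control level, centring, probe set averaging and each array left out.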

Additional observations from a re-analysis of the deposited data

How the results depend on the processing

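Each value was recomputed under the alternatives listed with the methods. Of 315 values from alternatives other than leaving out an array, 278 counted as kept and 37 did not. With 1 array left out, 239 of 264 did and 25 did not. A count was kept if it stayed within 1.5 times, and a median if it moved by less than 0.28, the SD of the member median within groups. This rule is loose. The main medians of triploid TME versus diploid (0.22), tetraploid versus diploid (0.22) and tetraploid versus triploid TME (-0.03) were smaller than that SD. A fall to near 0 thus counted as kept, as from 0.216 to 0.002 in triploid TME versus diploid after centring. Many other values were counts of called members that were 0 in both settings, so these totals say little about robustness. The number of members lower in tetraploids than in triploid TFE, 2, was 1 with quantile normalization, with the replicate block and with probe sets of a gene averaged, and 0 without the filter, without the intensity trend, with only the arrays of the 2 groups, and with the spiked-in control level as a covariate; it was 3, psbI added, with the filter applied on all 11 arrays, and 2 with the other floor, the pseudocount, robust variances and array weights. With the spiked-in covariate, the median member differences were -0.005 (triploid TFE versus diploid), 0.075 (triploid TFE versus triploid TME) and 0.021 (tetraploid versus triploid TFE). Centred on the other chloroplast genes, the same medians were -0.16, -0.11 and 0.28; 1 member was called higher and 1 lower in triploid TFE versus diploid, 1 higher in tetraploid versus diploid, 1 higher in triploid TFE versus triploid TME, and 6 higher and 1 lower in tetraploid versus triploid TFE; psbI in triploid TFE versus diploid turned to -0.028 (limma, adjusted p = 0.90). In the blocked fit of 6 arrays for tetraploid versus triploid TME, added after the data were seen, 1 member was called higher and 1 lower. Elsewhere the replicate block changed no other call of a member. The cause of these changes was not tested, except that fewer arrays or more probe sets tested lie in the setting itself.

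With each array left out in turn, the median member difference ran from 0.33 to 0.77 (triploid TFE versus diploid), 0.01 to 0.42 (triploid TME versus diploid), 0.03 to 0.36 (tetraploid versus diploid), 0.18 to 0.50 (triploid TFE versus triploid TME), -0.46 to -0.29 (tetraploid versus triploid TFE) and -0.15 to 0.10 (tetraploid versus triploid TME). Members called higher numbered 0 to 1 in triploid TFE versus diploid, tetraploid versus diploid and triploid TFE versus triploid TME, and 0 in the other 3; members called lower numbered 0 to 4 in tetraploid versus triploid TFE and 0 in the others. Without 1 diploid array, the other was assumed to vary like the other groups. The limits are 2 or 3 arrays a group, array numbers that run by group, and a common scaling that hides any change in total RNA.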
